A study of Mus musculus with 300 samples.

Results

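Tcf7, Lef1, Tox, Sox4 and Ets1 are 5 transcription factor genes of the T lineage, and they are 5 of the 13737 features in the authors' deposited expression matrix. They were chosen by name: Tcf7, Lef1, Tox and Sox4 encode DNA-binding proteins with an HMG box, and Ets1 encodes the founding member of the ETS family. The rule applies no threshold to measured values, and the rows were read over every cell of the matrix.

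The cells carry the label of early thymic progenitors (ETPs) and were flow sorted one by one from the E15.5 thymus (E, embryonic day) of 5x polychromILC mice, a strain with reporters at loci that include Id2, Gata3, Rora and Bcl11b. Full-length cDNA was amplified from each cell by oligo-dT priming and PCR. All cells share this genotype and age, no treatment is named, and the labels give a single group from 4 mouse ids, of which the matrix holds 67 cells (mouse 1A), 69 (1B), 64 (2A) and 61 (2B). The sources used here do not say whether an id is 1 embryo or several or how the gates were set. The p-values therefore rest only on the spread between these ids. For each gene the test draws that spread towards the spread of all genes tested.

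TCF1, the product of Tcf7, and LEF1 are sister proteins that bind the same DNA letters, bend the DNA and recruit beta-catenin or Groucho-type corepressors. TCF1 is induced by Notch signalling when progenitors enter the thymus and is required in the mouse for T-lineage specification. TOX and SOX4 carry HMG boxes of other families; TOX is required for CD4 T cells and innate lymphoid cells in the mouse, and SOX4 for early B and T progenitors. ETS1 binds DNA through its ETS domain and is required for natural killer (NK) cells and for normal thymocyte development in the mouse.

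The kinship of Tcf7 and Lef1 can be read from their coding sequences, and it bears on whether reads of this pair could be mixed up in counting. In GENCODE vM21 (GRCm38), Tcf7 lies at chr11:52252371-52283014 on the minus strand and Lef1 at chr3:131110471-131224356 on the plus strand. Without gaps, the best matching stretch of their longest open reading frames encodes the HMG box. It starts at base 538 of the Tcf7 frame and at base 865 of the Lef1 frame. Of its bases 76.4% are identical, and the capitals mark the 70 that differ.
Tcf7: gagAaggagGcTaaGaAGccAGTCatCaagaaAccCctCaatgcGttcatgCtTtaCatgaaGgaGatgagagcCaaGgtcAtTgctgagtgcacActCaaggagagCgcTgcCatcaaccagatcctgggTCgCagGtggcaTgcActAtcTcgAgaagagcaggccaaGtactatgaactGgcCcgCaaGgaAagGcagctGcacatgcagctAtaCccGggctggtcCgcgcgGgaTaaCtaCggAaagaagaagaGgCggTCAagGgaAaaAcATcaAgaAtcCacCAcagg
Lef1: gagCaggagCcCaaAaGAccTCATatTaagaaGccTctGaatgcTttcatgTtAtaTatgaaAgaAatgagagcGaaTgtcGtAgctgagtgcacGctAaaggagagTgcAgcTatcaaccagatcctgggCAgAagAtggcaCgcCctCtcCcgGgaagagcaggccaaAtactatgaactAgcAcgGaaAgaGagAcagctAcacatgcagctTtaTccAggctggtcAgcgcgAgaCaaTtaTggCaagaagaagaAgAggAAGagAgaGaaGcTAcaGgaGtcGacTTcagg
The differences are spread along the whole stretch, and no word of 31 bases is shared by the annotated transcripts of any pair among the 5 genes. The best ungapped stretch of any other pair had 38 bases or fewer. Tox lies at chr4:6686353-6991557 (minus strand), Sox4 at chr13:28948919-28953713 (minus strand) and Ets1 at chr9:32636221-32757820 (plus strand). Each of the 5 genes overlaps at least 1 annotated antisense or long noncoding gene that has no row in the matrix, and the kit is not stated to mark strand, so reads of such partners cannot be told apart from those of the factors.

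A factor counted as detected where its value lay above the one that cells without reads share. That no-read value differs between 4 sets of cells recognised by exactly shared values, and a level here is the log2 value above it. The matrix carries no read totals; detected genes, from 5073 to 10337 per cell, stand in for depth. A linear level is 2 to the power of the log2 level, less 1, and the sources used here do not say whether it is scaled to transcript length; levels are therefore not ranked between genes.

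Sox4, Tcf7, Tox and Ets1 were each read in most cells and Lef1 in a minority. Sox4 was detected in 58 of the 67 cells from mouse 1A, 61 of the 69 from 1B, 54 of the 64 from 2A and 57 of the 61 from 2B, a mean of 88.2 ± 3.87% (SD of 4 mice). Tcf7 was detected in 44 of 67, 55 of 69, 56 of 64 and 56 of 61 cells of the same mice, a mean of 81.2 ± 11.5%. Mouse 1A held the lowest Tcf7 share, 65.7% with an exact 95% Clopper-Pearson interval of 53.1 to 76.8%, and mouse 2B the highest, 91.8% (81.9 to 97.3%). Those intervals do not overlap, and they cover counting error only. Median detected genes were 7518 (1A), 7544 (1B), 7787 (2A) and 8243 (2B), in the same order as the Tcf7 shares. The part of depth in these shares was not tested. All cells of 1A were in sequencing pool 1 and all of 2B in pool 2, so these mice cannot be told apart from their pools. Tox was detected in 46, 56, 50 and 51 cells of the same mice (77.9 ± 6.55%), and Ets1 in 54, 51, 44 and 46 cells (74.7 ± 4.87%). Lef1 was detected in 26, 26, 23 and 25 cells (38.4 ± 2.11%).

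In the order of detection, Sox4, Tcf7, Tox and Ets1 followed each other at distances within the spread of the mice, and each of the 4 ids placed Lef1 below all the others. At a linear level of at least 10, Tcf7 was present in 58.8 ± 9.52% of cells, Lef1 in 5.46 ± 3.24%, Tox in 57.5 ± 7.97%, Sox4 in 76.8 ± 8.18% and Ets1 in 54.2 ± 6.39%. In cells with reads, the median log2 level was 6.16 ± 0.52 for Tcf7, 1.79 ± 0.34 for Lef1, 6.03 ± 0.39 for Tox, 7.28 ± 0.50 for Sox4 and 5.82 ± 0.79 for Ets1. Both sets of values depend on each gene's own scale and are given gene by gene, not as an order.

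**Figure D1:**
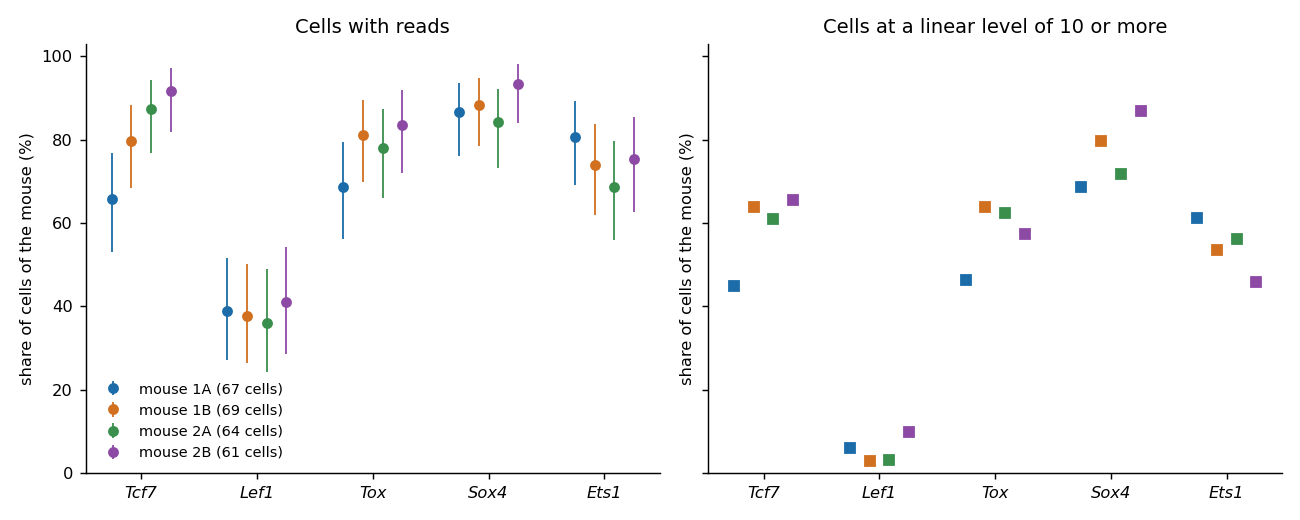
Share of cells of each labelled mouse with reads of the 5 factors (left, with exact 95% intervals) and at a linear level of 10 or more (right), in percent. Lef1 sits below 41% on the left and below 10% on the right in all 4 mice, while Tcf7 spans 65.7 to 91.8% on the left.

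To see which cells carried the factors, the cells were clustered on variable genes without the 5 members, and the clusters serve only as a description. Clusters 1, 2 and 3 (68, 56 and 54 cells) were led by DNA replication genes such as Rrm2 and Cdc6, by Mpo and Trbc1, and by mitotic genes such as Plk1 and Ccnb1; in each, 7 of 8 progenitor markers and 3 of 8 markers of committing T cells were detected in over 50% of cells. Detection of single markers does not part the clusters, since 5 to 8 progenitor markers passed 50% in the other clusters too, and the names rest on leading genes. Clusters 4, 5, 7 and 8 went against the ETP label. Cluster 4 was NK/ILC-like (23 cells, Il2rb, Ctsw, Klrk1, where ILC stands for innate lymphoid cell) and cluster 5 plasmacytoid dendritic-like (19 cells, Siglech, Pld4, Irf8). Cluster 7 was macrophage-like (14 cells, Csf1r, Ctss, Pld4, Apoe) and cluster 8 mast/basophil-like (9 cells, Hdc, Mcpt8, Prss34). The name of cluster 7 is loose, since Pld4, Ctsh and Ctss lead cluster 5 too. Its macrophage markers lay a mean of 4.42 log2 above other cells and its plasmacytoid dendritic markers 2.05. Cluster 6 (18 cells) stays unnamed.

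In the NK/ILC-, plasmacytoid dendritic- and mast/basophil-like clusters Sox4 had a lower and Ets1 a higher median level than in clusters 1 to 3. The macrophage-like cells had a lower Sox4 median (log2 level 3.88, detected in 11 of 14) and an Ets1 median within the range of clusters 1 to 3 (3.62, detected in 11 of 14). Sox4 was detected in 68 of 68, 56 of 56 and 54 of 54 cells of clusters 1, 2 and 3, with median log2 levels of 7.36, 7.78 and 7.39. Of the NK/ILC-like cells 8 of 23 had Sox4 reads, with a median level of 0, as had 11 of 19 plasmacytoid dendritic-like and 5 of 9 mast/basophil-like cells. In the unnamed cluster 6 Sox4 was in 17 of 18 cells (median 7.33) and Ets1 in 13 of 18 (median 1.33). Ets1 was detected in 46 of 68, 35 of 56 and 40 of 54 cells of clusters 1, 2 and 3, with median log2 levels of 1.61, 3.78 and 3.06. In NK/ILC-like cells Ets1 was detected in 23 of 23 at a median of 9.55, in mast/basophil-like cells in 9 of 9 at 8.27 and in plasmacytoid dendritic-like cells in 18 of 19 at 8.04. No NK/ILC-like cell came from mouse 2B, and 21 of the 23 lay in the first 8 wells of their correction set, against 2 in all later wells.

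Tcf7 and Tox were both more often read in clusters 1 to 3 and in cluster 6 than in the 4 clusters named for other types. Tcf7 was detected in 62 of 68, 52 of 56 and 46 of 54 cells of these clusters, and in 16 of 18 cells of cluster 6, against 35 of the 65 cells of the other types. Its highest median was in cluster 2 (7.46), and 14 of 23 NK/ILC-like cells also had Tcf7 reads, with levels from 0 to 10.7. Tox was detected in 56 of 68, 50 of 56 and 50 of 54 cells of clusters 1, 2 and 3 and in 15 of 18 of cluster 6, against 32 of the 65. Its median was highest in the mitotic cluster 3 (6.37). In mast/basophil-like cells Tox was detected in 0 of 9, which with 9 cells allows a share of up to 33.6%. Mouse 1A, which had the lowest Tcf7 share, gave 10 of the 19 plasmacytoid dendritic-like and 5 of the 9 mast/basophil-like cells. The part of this makeup in its Tcf7 share was not tested. Inside clusters 1 to 3 the count was 35 of 43 for mouse 1A, 43 of 51 for 1B, 39 of 40 for 2A and 43 of 44 for 2B. Shares of 1A and 1B thus stayed below those of 2A and 2B. Mice 1A and 1B were only in pool 1 and 2B only in pool 2, so mouse and pool cannot be told apart for them. Mouse 2A was in both pools. Over all its cells, Tcf7 was detected in 26 of 29 in pool 1 and in 30 of 35 in pool 2.

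Lef1 showed no such division between clusters 1 to 3 and the 4 other types. In cluster 6 it had its largest share, 9 of 18 cells. It was detected in 26 of 68, 18 of 56 and 20 of 54 cells of clusters 1, 2 and 3, against 27 of the 65 cells of the 4 other types. Myeloid cells should lack Lef1, yet 6 of 14 macrophage-like and 3 of 9 mast/basophil-like cells had reads. The macrophage-like cluster also carried dendritic markers, so not all its cells need be macrophages. Median detected genes were 8091, 7726.5 and 8373 in clusters 1 to 3, and 7162 and 6786 in the macrophage-like and mast/basophil-like cells. A share with any reads at or below that of cells expected to lack the gene may be background. It is not taken as evidence of expression here. This reading does not cover cells with higher levels. In 14 cells Lef1 reached a linear level of 10, and the highest log2 level was 10.7. Clusters 1 to 3 held 6 of these cells, cluster 6 held 4, and the NK/ILC- and plasmacytoid dendritic-like clusters held 2 each. The macrophage-like and mast/basophil-like clusters held 0, but with 14 and 9 cells they are too small to compare shares at that level.

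**Figure D2:**
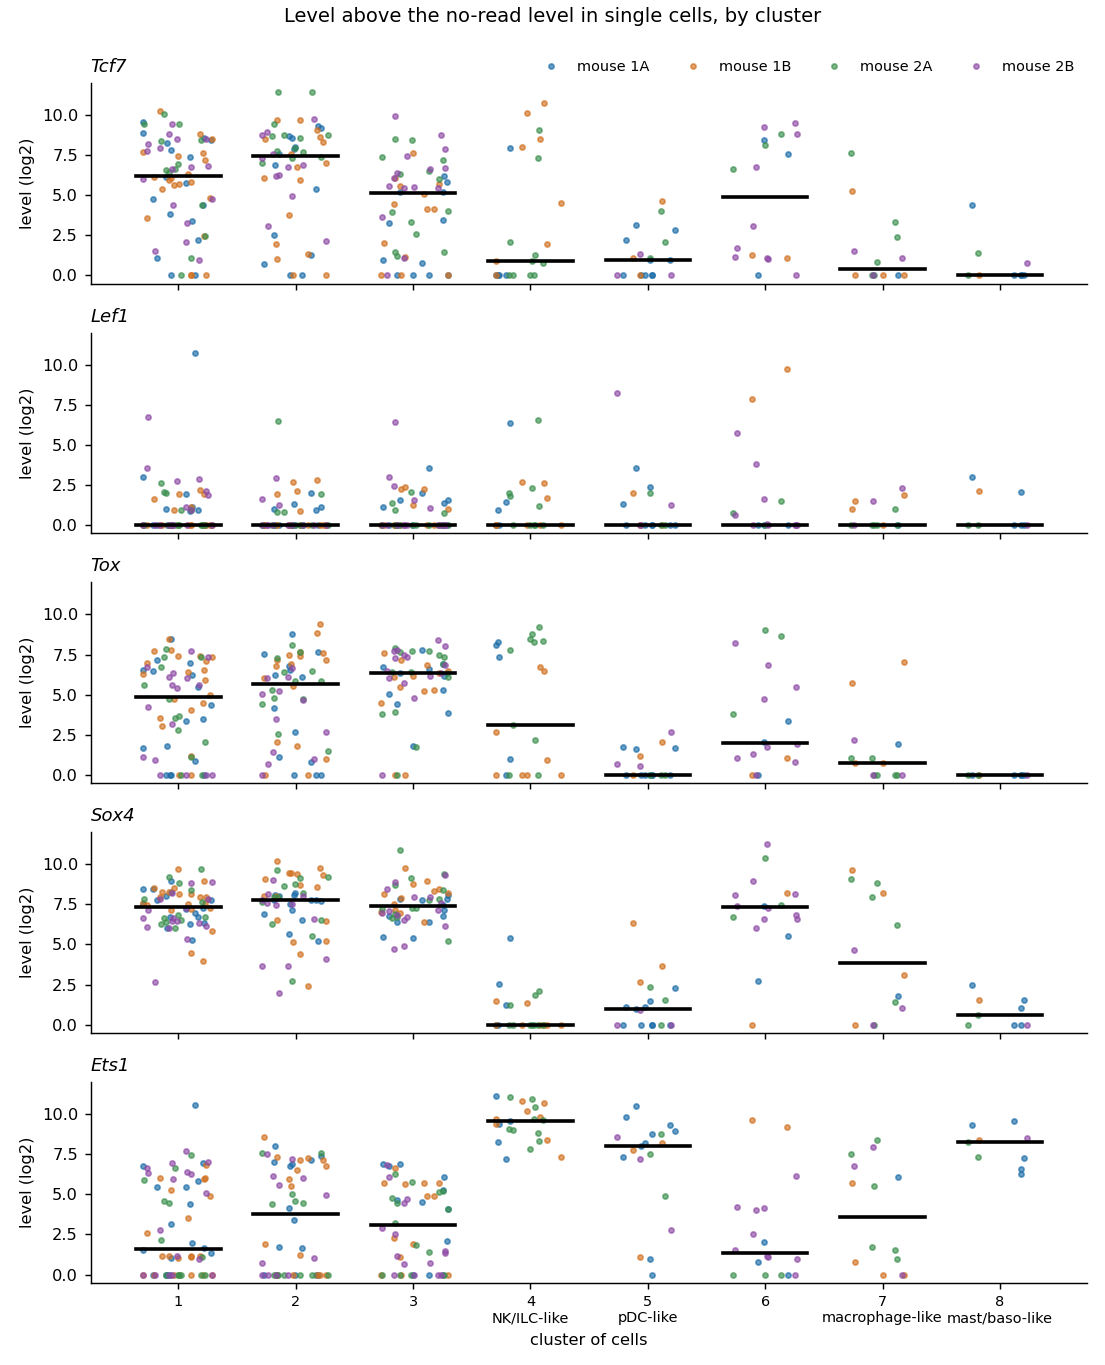
Log2 level of the 5 factors above the no-read level in each cell (points, coloured by mouse), by cluster; black bars are medians. Sox4 fills clusters 1 to 3 near 7.5 and drops to 0 in NK/ILC-like cells, Ets1 is highest in NK/ILC-like cells at 9.55, and Lef1 has a median of 0 in 7 of the 8 clusters and 0.04 in cluster 6.

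All 5 were detected in 16.9% of cells, 4 of them in 41.4% and 3 in 30.3%, whereas 1 cell had none. At a linear level of at least 10, the most common combinations were Tcf7 with Tox and Sox4 (51 cells), the same 3 with Ets1 (49 cells), Ets1 alone (29 cells) and Tcf7 with Sox4 (26 cells). Joint detection lay close to the product of the separate shares, averaged over mice. Tcf7 and Sox4 were both detected in 76.7% of cells, where the product gives 71.7% (an excess of 4.92 ± 3.24 points, above 0 in 4 of 4 mice). Tcf7 and Lef1 were together in 31.6%, where it gives 31.1%, and Sox4 and Ets1 in 63.2%, where it gives 65.9%. Cells with reads of Sox4, Tcf7 or Tox had more detected genes than cells without (medians of 7888 and 6531 for Sox4), whereas the order was the opposite for Lef1 (7645 and 7877) and Ets1 (7707 and 7822). The part of depth was not tested here, and the fits below hold the number of detected genes constant.

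Whether levels rise and fall together was asked inside each mouse by a partial Spearman correlation (rho), given the number of detected genes, the plate and the correction set; the 4 mice were then tested with limma across all 12437 genes read in at least 10% of cells, with Benjamini-Hochberg adjustment at 0.05. Tcf7 and Sox4 were positively correlated, with rho of 0.336 in mouse 1A, 0.331 in 1B, 0.395 in 2A and 0.218 in 2B. The mean was 0.321 ± 0.0739 (SD), with adjusted p = 9.73e-05 among the partners of Tcf7 and 0.000202 among those of Sox4. Sox4 and Ets1 were negatively correlated, with rho of -0.184, -0.194, -0.487 and -0.124 in the same mice. Their mean was -0.254 ± 0.163, with adjusted p = 0.00666 among the partners of Sox4 and 0.0259 among those of Ets1. Thus 1 of the 4 other factors was called positive with Tcf7, where 4.25% of all genes were, and 1 was called positive and 1 negative with Sox4, where 5.42% and 1.63% of all genes were.

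Neither call was made among the fewer cells of clusters 1 to 3. Inside clusters 1 to 3, Tcf7 and Sox4 had a mean rho of 0.211 ± 0.0547 (positive in 4 of 4 mice, adjusted p = 0.239 and 0.452), and Sox4 and Ets1 had 0.0847 ± 0.102 (adjusted p = 0.877 and 0.992). Without the NK/ILC-like cells Tcf7 and Sox4 were called (0.342 ± 0.0835, adjusted p = 3.65e-05 and 0.000139), and Sox4 and Ets1 were not (-0.146, adjusted p = 0.245 and 0.319). The restriction to clusters 1 to 3 was chosen after the data were seen. The other 8 pairs were not called over all cells. Tcf7 and Tox had rho of -0.025, 0.337, 0.324 and 0.100 in mice 1A to 2B (mean 0.188, adjusted p = 0.0652 and 0.419), and Tox and Sox4 a mean of 0.178 ± 0.129 (adjusted p = 0.425 and 0.0945). Among the partners of Tcf7, Tox passed 0.05 without the plate covariate (adjusted p = 0.0420), without depth (0.0235), without the first 8 wells (0.0124), without the NK/ILC-like cells (0.00424) and without mouse 1A (0.0404). Sox4 passed among the partners of Tox without depth (adjusted p = 0.0102). Without the NK/ILC-like cells Tox and Sox4 had a mean rho of 0.242. There Tox passed among the partners of Sox4 (adjusted p = 0.0191), and Sox4 did not among those of Tox (0.128). For most other settings a pair was read only in the fit of its first-named gene. Lef1 and each of the other 4 had means between -0.0295 and 0.039.

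**Figure D3:**
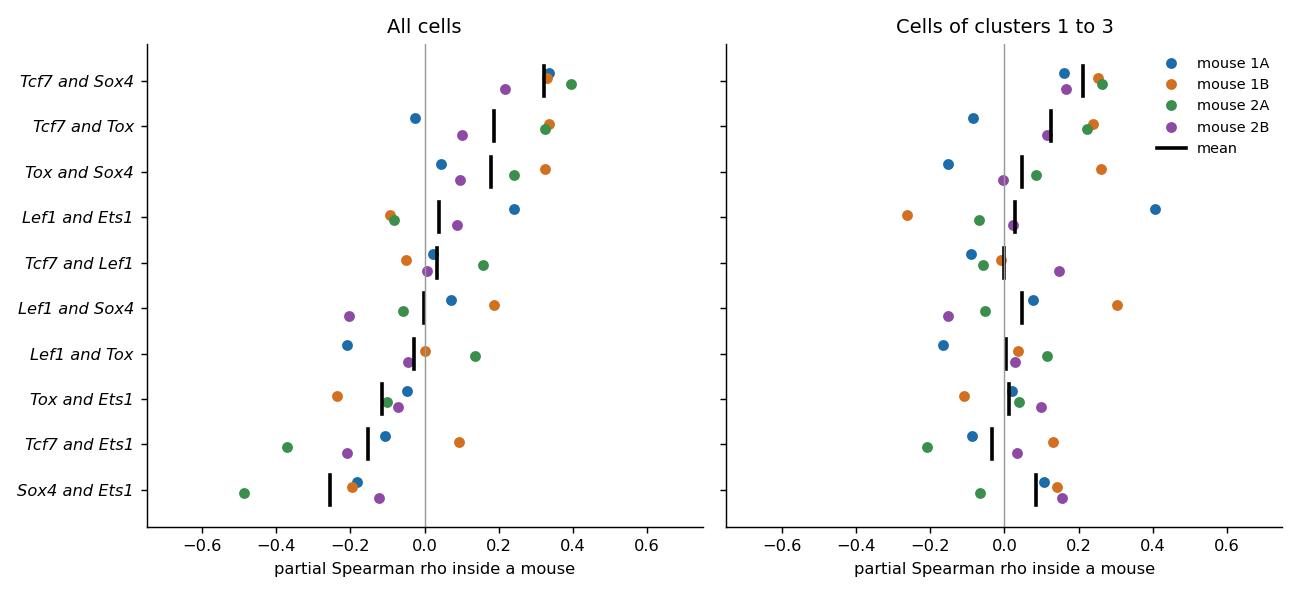
Partial Spearman rho of the 10 pairs of factors inside each labelled mouse (points) with the mean (bar), over all cells (left) and over cells of clusters 1 to 3 (right). Tcf7 and Sox4 lie above 0 in all 4 mice in both panels, and Sox4 and Ets1 lie below 0 in all 4 mice on the left and at a mean of 0.0847 on the right.

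Of the 675 genes called with Tcf7, 528 were positive (4.25% of those tested) and the rest negative (1.18%). Values per mouse are in the order 1A, 1B, 2A, 2B. Among the genes most like it were T-cell receptor beta segments. Trbc1 had rho of 0.449, 0.432, 0.502 and 0.533 in mice 1A to 2B (mean 0.480 ± 0.0471, adjusted p = 1.32e-11), a range narrower than that of the other genes named for Tcf7 apart from Ighm. It was 1.41 log2 higher per SD of the Tcf7 level. Trbj1-1 (0.454 ± 0.0671) and Trbc2 (0.447 ± 0.121), of the same locus, followed; Trbc1 and Trbc2 are near-identical copies, and how the counting split their reads is not known here. The largest mean belonged to Cpa3, a mast cell carboxypeptidase gene (0.497 ± 0.0731, adjusted p = 2.32e-12, 1.80 log2 per SD). In clusters 1 to 3 the rho of Cpa3 was 0.504 (adjusted p = 5.3e-08), and over all cells Prss34, a protease gene of the same mast and basophil list, was negative (-0.201, adjusted p = 0.0431). Il17rb, the IL-25 receptor gene (0.439), Dpp4, a surface peptidase gene (0.445), the alpha-4 integrin gene Itga4 (0.447), the prostaglandin reductase gene Ptgr1 (0.450) and Crip1 (0.456) were also among the 10, each positive in 4 of 4 mice.

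Ighm, Csf2rb, Flt3 and Gfra1 led the genes most negative with Tcf7. Ighm, the immunoglobulin mu constant region, had rho of -0.375, -0.363, -0.454 and -0.370 (mean -0.391 ± 0.0427, adjusted p = 2.81e-07). Csf2rb, a cytokine receptor chain of myeloid progenitors (-0.343 ± 0.116), the lymphoid and myeloid progenitor receptor gene Flt3 (-0.308 ± 0.118), Gfra1, a coreceptor of GDNF (-0.305 ± 0.0868), and Csf1r, the macrophage growth factor receptor gene (-0.270 ± 0.0752), were negative in 4 of 4 mice. Prkd2, Ctss, Itgb2, Nucb2 and Slfn2 completed the 10, with rho between -0.305 and -0.276. Among cells of clusters 1 to 3 the association was called again for Gfra1 (-0.552, adjusted p = 2.59e-10), Flt3 (-0.434, adjusted p = 1.24e-05), Ighm (-0.411, adjusted p = 6.14e-05) and Csf1r (-0.339, adjusted p = 0.00376), and not for Csf2rb (-0.227, adjusted p = 0.173).

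Of the T specification list, 8 of 23 tested genes were positive with Tcf7 and 0 negative, with a median rho of 0.077 beside 0.0172 over all genes. They were Il2ra, the marker of the next thymocyte stage (0.346 ± 0.159), Lck, a T-cell receptor kinase gene (0.338 ± 0.0682), the adaptor gene Lat (0.331 ± 0.108), Bcl11b (0.277 ± 0.0957) and Gata3 (0.258 ± 0.119), both commitment factor genes, the Notch target Hes1 (0.246 ± 0.196), Trbc1 and Trbc2. Of the Notch pathway list, Hes1 and Dtx1 (0.297 ± 0.148) were positive among 12. Of the gamma-delta T list 5 of 10 genes were positive and 0 negative (median 0.187), among them Tcrg-C1 (0.302 ± 0.0473) and Trdc (0.241 ± 0.105). Gzma and Nkg7 of the NK list were positive, 2 of 12 (median -0.00693), and Zbtb16, Itga4 and Gata3 of the ILC list, 3 of 17 (median -0.0315). The progenitor list was split, with Kit, Lyl1, Erg, Myb and Adgrg1 positive and Flt3, Lmo2, Mef2c, Hoxa9, Cebpa and Csf2rb negative among 20. Of 20 beta-catenin and Groucho partner genes, those with which TCF1 and LEF1 act, 0 were called with Tcf7. Over all genes 4.25% were called positive and 1.18% negative, so 0 of 20 is near that share. Of the 20, 17 had a positive rho, with a median of 0.0397 beside 0.0172 over all genes. Bcl9l had the largest rho (0.181, adjusted p = 0.0827).

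With clusters 1 to 3 alone, 73 genes were positive with Tcf7 (0.586%) and 33 negative (0.265%). Of the T specification list Il2ra (0.373), Trbc1 (0.399), Trbc2 (0.290) and Lck (0.287) were positive there, 4 of 20. That list had a median rho of 0.0957 beside 0.00788 over all genes. Higher medians were not limited to it. All 11 NK genes had a positive rho (median 0.131), as had 5 of 5 thymic stroma genes (0.153), with 0 calls in either list. Of the progenitor list 4 of 19 were negative: Flt3, the stem cell antigen gene Cd34 (-0.400, adjusted p = 0.000129), Hoxa9 (-0.343) and Lmo2 (-0.304), all negative in 4 of 4 mice. None of the progenitor genes that were positive over all cells was called, with Kit at 0.150, Lyl1 at 0.121, Erg at 0.00705, Myb at 0.231 and Adgrg1 at 0.215. Of the gamma-delta T list 1 of 10 was called, Trgj2 (0.289, adjusted p = 0.0341), and the median was 0.185. Zbtb16, which encodes the innate lymphoid factor PLZF, was positive (0.297 ± 0.0589). Of the 24 G2M phase genes 1 had a positive rho, and Plk1 was called negative (-0.279).

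The nearest tested neighbour of Tcf7 on either side on chromosome 11 was among its positive partners. Skp1a, a ubiquitin ligase subunit gene on the plus strand, had rho of 0.584, 0.377, 0.489 and 0.505 in mice 1A to 2B (mean 0.492 ± 0.085, adjusted p = 2.75e-12). Vdac1, a mitochondrial channel gene on the other side, had a mean of 0.366 ± 0.0985 (adjusted p = 2.72e-06). Skp1a ends 5512 bases from Tcf7 in GENCODE vM21 and overlaps it by 332 bases in RefSeq (GRCm38.p6), tail to tail; the gap to Vdac1 is 77845 bases. Of the 11 tested genes within 500 kb of Tcf7 these 2 were called positive, where 4.25% of all genes were; the window was chosen after their values were seen. Skp1a and Vdac1 were also positive with Sox4 (0.371 and 0.298, adjusted p = 6.64e-06 and 0.000766), which lies on another chromosome. Within clusters 1 to 3 Skp1a (0.453) and Vdac1 (0.392) were again positive with Tcf7. The part of reads from overlapping transcripts was not tested. Within 500 kb of Lef1, Tox and Ets1, 0 of 6, 0 of 3 and 0 of 2 tested genes were called. Near Sox4 1 of 2 was, Gm11362, which was positive over all cells (0.223, adjusted p = 0.0228) and not called in clusters 1 to 3 (0.166, adjusted p = 0.698).

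**Figure D4:**
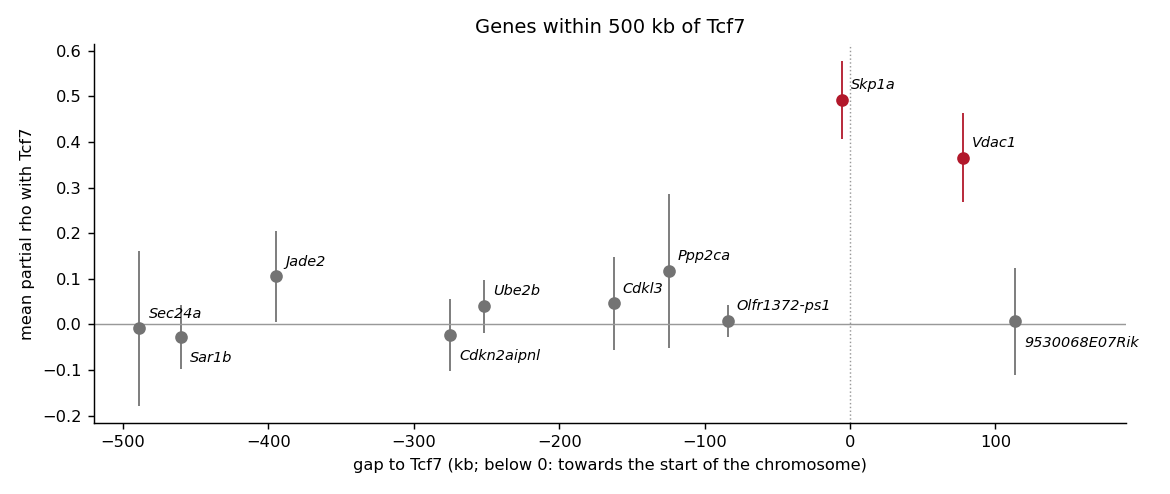
Mean partial rho with Tcf7 (y axis, bars are the SD of 4 mice) of the 11 tested genes within 500 kb, against the gap to Tcf7 in kb; red points are called. Skp1a at 0.492 and Vdac1 at 0.366 stand above the other 9, which lie between -0.0275 and 0.118.

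Sox4 had 877 called partners, of which 674 were positive (5.42% of genes tested) and the rest negative (1.63%). Leading it were Ankrd13a, a ubiquitin-binding protein gene (rho 0.451, 0.494, 0.607 and 0.577 in mice 1A to 2B, mean 0.535 ± 0.0723, adjusted p = 1.37e-13), the G protein subunit gene Gnb1 (0.521 ± 0.0666), the RNA export factor gene Alyref (0.508 ± 0.156), the splicing factor gene Srsf2 (0.506 ± 0.0962) and Myb, a progenitor transcription factor gene (0.490 ± 0.202). Arf6 (0.484), Ptov1 (0.473), Mknk2 (0.470), the phosphatase gene Dusp2 (0.468) and the catalytic subunit gene of phosphatase 2A, Ppp2ca (0.467), completed the 10. Inside clusters 1 to 3, where Sox4 was in every cell, 35 genes were positive (0.281%) and 0 negative (0%). Gnb1 (0.567), Arf6 (0.574), Ankrd13a (0.506), Srsf2 (0.488) and Ppp2ca (0.484) were among them; Myb was not (0.192, adjusted p = 0.575).

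Ahnak, Atp1b1 and Actb led the genes most negative with Sox4 over all cells. Ahnak, which encodes a large membrane scaffold (-0.437 ± 0.0651), Atp1b1 (-0.395 ± 0.0761), Actb (-0.391 ± 0.201), the Fc receptor gamma chain gene Fcer1g (-0.373 ± 0.153) and Slfn2 (-0.362 ± 0.136) were followed by Arsb, Fgl2, Gas7, Anxa2 and Ighm (-0.343 to -0.316). Of the NK list Klrd1, Klrk1 and Klrb1b were negative, 3 of 12, and of the dendritic list Irf8, Cd74 and Mpeg1, 3 of 13. In the NK/ILC-like and plasmacytoid dendritic-like cells Sox4 was low, and the part of these cells in the calls was not tested. For clusters 1 to 3 the rho of the 10 negative genes named for Sox4 lay between -0.217 and 0.0425.

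Of the progenitor list, 8 of 20 genes were positive with Sox4 and 2 negative, with a median rho of 0.117 beside 0.0261 over all genes. The positive genes included Kit, the stem cell factor receptor gene (0.401 ± 0.106), the receptor gene Adgrg1 (0.439 ± 0.183), Cd34 (0.338 ± 0.0254) and Mycn (0.321 ± 0.0452). T specification genes were positive in 6 of 23, among them Notch1 (0.212), Hes1 (0.381) and Cd27 (0.309). Of the beta-catenin and Groucho partners, the corepressor gene Ctbp1 (0.344 ± 0.148) and the beta-catenin adaptor gene Bcl9 (0.205 ± 0.105) were positive, 2 of 20, and in clusters 1 to 3 Ctbp1 (0.392, adjusted p = 0.00409) and the Groucho-related gene Aes (0.351, adjusted p = 0.0171) were, 2 of 21. Id2, an inhibitor of E proteins, was negative (-0.284 ± 0.127), and the E protein gene Tcf3 positive (0.314 ± 0.163). Among other HMG-box genes, Sox13 (0.297), Smarce1 (0.316) and Hbp1 (0.221) were positive, 3 of 17. In clusters 1 to 3, 0 of 19 progenitor genes (median 0.00664 beside 0.00848 over all genes), 0 of 20 T specification genes and 0 of 17 other HMG-box genes were called with Sox4.

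The difference between Tcf7 and Sox4 was tested directly, as the difference of their Fisher z values in each mouse. Higher with Tcf7 were 13 of 12436 genes (0.105%) and higher with Sox4 34 (0.273%). Fcer1g differed by 0.549 ± 0.131 in z (adjusted p = 2.27e-08). The granule protease gene Gzma (0.367 ± 0.12), Cd160 (0.351), the gamma-delta segment Tcrg-C1 (0.318 ± 0.129) and the actin-binding gene Tmsb4x (0.358) also had the higher z with Tcf7. Cd34 (-0.456 ± 0.138, adjusted p = 2.91e-05), Gfra1 (-0.449 ± 0.118), Arf6 (-0.416), Srsf2 (-0.378), Ppp2ca (-0.388) and Csf1r (-0.314) had the higher z with Sox4. A higher z need not be a positive association. Csf1r was negative with Tcf7 (-0.270) and not called with Sox4, and Fcer1g was negative with Sox4. Inside clusters 1 to 3 the count was 8 (0.0643%) and 10 (0.0803%). There Fcer1g (0.507), Tcrg-C1 (0.478), Cd34 (-0.483), Gfra1 (-0.590) and Arf6 (-0.452) were called again. The replication genes Mcm3 (0.443) and Mcm5 (0.454) had the higher z with Tcf7. Of the 24 S phase genes 0 were called with either factor there, and 17 had a positive rho with Tcf7 and 1 with Sox4.

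Tcf7 and its sister Lef1 differed for 306 genes that were higher with Tcf7 (2.46%) and 45 that were lower (0.362%). The differences included Skp1a (0.689 ± 0.245), Cpa3 (0.649 ± 0.0542), Trbc1 (0.500 ± 0.0874), Lat (0.479 ± 0.178) and Il2ra (0.365 ± 0.18), and on the other side Ighm (-0.518 ± 0.0177). Sox4 itself differed by 0.334 ± 0.147 (adjusted p = 0.0208). In clusters 1 to 3, 22 genes (0.177%) were higher and 11 (0.0884%) lower, with Cpa3 (0.625), Itga4 (0.572), Flt3 (-0.451) and Hoxa9 (-0.517) among them. Lef1 alone had 0 called partners (0%) at an adjusted p of 0.05 by limma and 710 genes at an unadjusted p under 0.05. The largest moderated statistics belonged to Krt10 (0.256 ± 0.0623) and, on the negative side, Ube2n (-0.239 ± 0.0969), each with adjusted p = 0.717. Few cells held more than a trace of Lef1, so a difference between Tcf7 and Lef1 in partners cannot be told apart from a difference in level.

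Tox had 0 called partners (0%), with 1106 genes at an unadjusted p under 0.05. Nearest to the threshold were the angiopoietin gene Angpt1, with rho of 0.192, 0.332, 0.354 and 0.501 in mice 1A to 2B (mean 0.349 ± 0.126, adjusted p = 0.052), Nrgn (0.322, adjusted p = 0.0641), Trbc1 (0.345, adjusted p = 0.0702) and the cell cycle kinase gene Cdk6 (0.305, adjusted p = 0.0702). Lck (0.295) had adjusted p = 0.101. On the negative side stood Csf2rb (-0.308, adjusted p = 0.0702), the inhibitory receptor gene Pirb (-0.286) and Pld4, a plasmacytoid dendritic marker (-0.274), both with adjusted p = 0.101. Of the 13 dendritic genes 0 had a positive rho with Tox (median -0.128), and of the 24 G2M phase genes 20 had (median 0.0482 beside 0.0143 over all genes), with 0 calls in either list. Without the NK/ILC-like cells, in which Tox ran from 0 to 9.24, 41 genes were called, among them Angpt1 (0.411, adjusted p = 0.000347), Trbc1 (0.381, adjusted p = 0.0026), the chaperone gene Hsp90b1 (-0.410, adjusted p = 0.000347) and Pld4 (-0.339, adjusted p = 0.00719), and Tcf7 and Tox had 0.261 ± 0.213, called among the partners of Tcf7 (adjusted p = 0.00424) and not among those of Tox (0.0952).

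Ets1 had 86 positive partners (0.691% of genes tested), and 1.67% were negative. Genes of the NK, ILC, dendritic and T specification lists were among the positive ones, and the last list also held negative ones. St3gal6, a sialyltransferase gene, had rho of 0.131, 0.461, 0.230 and 0.551 in mice 1A to 2B (mean 0.355 ± 0.196, adjusted p = 0.00262), and Adgre5, which encodes CD97 (0.337 ± 0.13), the NK receptor gene Klrd1 (0.323 ± 0.11), the interferon-induced Gbp4 (0.326 ± 0.0789) and the T-cell adaptor gene Skap1 (0.315 ± 0.157) were among the 10. Of the NK list 4 of 12 genes were positive (Klrb1c, Klrd1, Klrb1b and Il2rb, median 0.197 beside -0.0149 over all genes). Of the ILC list Il7r and Il2rb were positive, 2 of 17 (median 0.164), and of the dendritic list Irf8, 1 of 13 (median 0.122). The T specification list had 4 positive and 3 negative calls among 23 genes, with a median of -0.0445. The interleukin-7 receptor gene Il7r (0.279 ± 0.0728), the kinase gene Zap70 (0.228 ± 0.0937), Cd247 (0.237) and Cd7 (0.235) were positive on the T specification list, while Trbc1 (-0.259), Trbc2 (-0.312) and Hes1 (-0.242) were negative.

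Genes of the progenitor list were among the negative partners of Ets1. Angpt1 had rho of -0.276, -0.395, -0.463 and -0.285 (mean -0.357 ± 0.09, adjusted p = 0.00262). Serpinb1a (-0.350), Ctla2a (-0.345) and the nucleolar protein gene Ncl (-0.328 ± 0.0762) were also among the 10. Of the progenitor list Kit (-0.230), Cd34 (-0.245), Lyl1 (-0.273) and Adgrg1 (-0.288) were negative, 4 of 20, and the granule genes Mpo (-0.300) and Prtn3 (-0.267) were negative on the myeloid list. Of 16 other ETS genes 0 were called with Ets1, where 0.691% of all genes were positive and 1.67% negative. Its neighbour Fli1, another ETS gene, had -0.0306. With clusters 1 to 3, and also without the dendritic-, mast/basophil- and macrophage-like cells, 0 genes were called with Ets1 (0%), with 630 and 1099 genes at an unadjusted p under 0.05. The median size of rho over the partners called in all cells was 0.250, against 0.212 without those 3 kinds of cells, where each partner still tested kept its sign, and 0.0847 in clusters 1 to 3. Without mouse 2A 3 genes were called and without mouse 1B 27, with median sizes of 0.231 and 0.272.

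**Figure D5:**
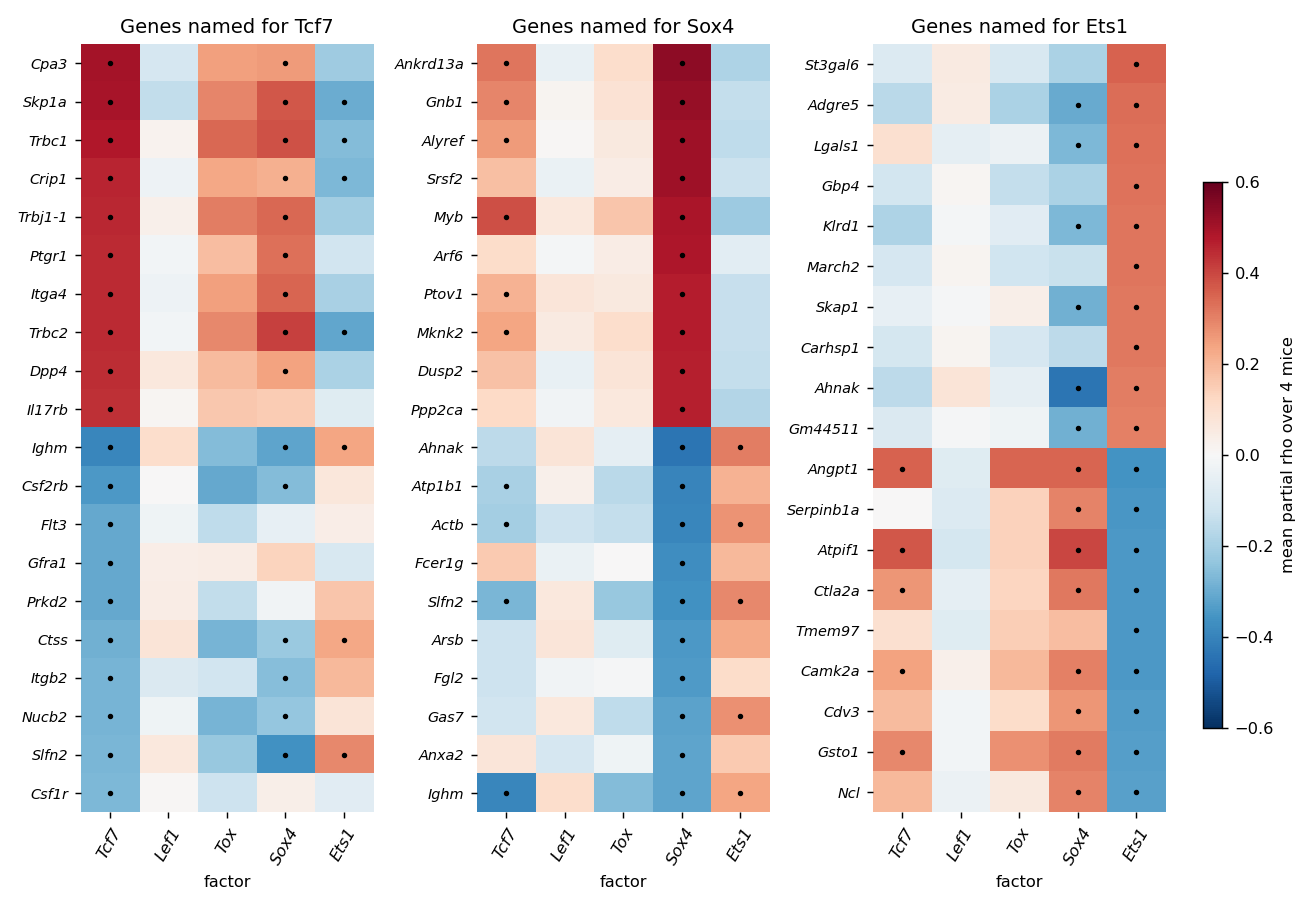
Mean partial rho over 4 mice (colour) of the genes named for Tcf7, Sox4 and Ets1 with each of the 5 factors; dots mark adjusted p under 0.05. The Lef1 and Tox columns carry no dot, and Angpt1 is positive with Tcf7 and Sox4 and negative with Ets1 (-0.357).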

How the data were processed

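Single-cell full-length cDNA libraries were made in 96-well plates and sequenced in 2 pools, per the labels' protocols. Per the submitters' processing notes Salmon was used with GRCm38; versions were not stated. The deposited matrix holds log2 expression, normalized and batch corrected by the authors (-4.13 to 15.99); the sources used here name no tool for either step, and the read depth is unknown. The planned unit was TPM or counts; being based on ranks, the test was kept. A no-read value, the repeated lowest value of a gene in a correction set (tolerance 1e-06), was subtracted; 12054 genes have it in all 4 sets. Symbols come from GENCODE vM21 (13578 IDs matched). Inside each mouse, partial Spearman correlations were tested as Fisher z over mice by a two-sided test in limma 3.58.1 (R 4.3.3), after a check on simulated data. Mice 2A and 2B draw on the same 2 correction sets (35 and 36 cells of set 2, 26 and 25 of set 4), so they may not be independent and p may be too small. Clusters used 20 principal components and Ward linkage. For each factor the text names up to 10 genes in each direction with the largest mean z among those called and of one sign in every mouse; with under 5 calls, the 5 with the largest moderated statistics; and called list members. A gene that this rule names for Ets1 is not reported here and is left out of its plot. The members and gene lists were chosen with earlier results of these data known.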

Additional observations from a re-analysis of the deposited data

Results flagged for a closer look

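Of the sets of 4 mouse values looked at (detection shares, levels, rho of pairs and of called named genes), 5 (4%) held a mouse whose gap to the nearest other, as a share of the range, passed Dixon's 95% critical value; chance flags about 1 in 20. The rho of Ighm with Tcf7 was -0.454 in mouse 2A, against -0.375, -0.363 and -0.370 in the others. The rho of Actb with Sox4 was -0.0805 in mouse 2B, against -0.461, -0.482 and -0.50 in the others; mouse 2B had 0 NK/ILC-like cells, whose part was not tested. For Gm4332 the z difference between Tcf7 and Lef1 was 0.737 in mouse 2B. Between Tcf7 and Sox4 the z difference was 0.270 for Marveld2 in mouse 1A and -0.266 for Pip4k2a in mouse 1B, each the value nearest 0 of its 4.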

How the results depend on the processing

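Shares are percentages of the genes tested that were called, over all cells 5.43 (Tcf7), 7.05 (Sox4), 2.36 (Ets1), 2.82 (Tcf7 against Lef1) and 0.378 (Tcf7 against Sox4). Without the depth covariate they were 8.62, 19.5, 9.23, 7.90 and 0.651, and 4.83 for Tox. With detected or not in place of level they were 0.0352, 0.00881, 0.0176, 0 and 0; rho was then 0.375 for Tcf7 and Sox4 and -0.167 for Sox4 and Ets1, neither called, and turned to 0.0213 for Anxa2 with Sox4 and 0.0160 for Cd34 between Tcf7 and Sox4. Pearson correlation gave 10.9 for Sox4, 1.83 and 0.893 for the comparisons with Lef1 and Sox4, and 0.153 for Tox. Levels under 10 set to no reads gave 1.09 and 0.697 for those comparisons and 0.0574 for Tox. Without the set covariate Ets1 had 4.07; with correction sets in place of mice Ets1 had 4.78 and Tcf7 against Sox4 0.973. Tox, with no call over all cells, had 0.0161 as deposited, 0.0241 without plate, 0.0482 without set, 0.00889 among genes in at least 20% of cells, 0.0221 among genes in at least 3 cells, 0.105 by sets, 0.329 without NK/ILC-like cells and 0.312 without the first 8 wells. Without dendritic-, mast/basophil- and macrophage-like cells the shares were 1.51 (Tcf7), 1.16 (Sox4), 0 (Ets1) and 0.673 (Tcf7 against Lef1), and rho was 0.220 for Tcf7 and Sox4 and -0.135 for Sox4 and Ets1. Without NK/ILC-like cells Ets1 had 1.24 and rho of Sox4 and Ets1 was -0.146. Without the first 8 wells Sox4 had 4.41, Ets1 0.577 and that rho was -0.161. In clusters 1 to 3, chosen after seeing the data, the shares were 0.851, 0.281, 0, 0.265 and 0.145; rho was 0.211 for Tcf7 and Sox4 and turned to 0.0847 for Sox4 and Ets1, 0.0425 for Actb and 0.00387 for Gas7 with Sox4 and -0.0199 for Ahnak with Ets1. The cause of these shifts was not tested.

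Detection at a level of 10 or more was 58.8, 5.46, 57.5, 76.8 and 54.2% for Tcf7, Lef1, Tox, Sox4 and Ets1. Detection at any level was 77.9% for Tox and 88.2% for Sox4; without dendritic-, mast/basophil- and macrophage-like cells it was 85.5 and 92.8%, and without the first 8 wells 93.4% for Sox4.

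Leaving out 1 mouse gave shares of 2.70 to 3.90 (Tcf7), 3.21 to 5.62 (Sox4), 0.0241 to 1.48 (Ets1, lowest without 2A), 1.15 to 1.88 (Tcf7 against Lef1), 0.104 to 0.177 (Tcf7 against Sox4) and 0 to 0.00801 (Tox). The rho of Tcf7 and Sox4 ran from 0.296 to 0.354 and that of Sox4 and Ets1 from -0.296 to -0.167, not called without 2A. The limma trend, and a filter at 5% of cells, changed no count by over 1.5 times. Of the 2362 values of named genes under other settings 1967 counted as unchanged. For a called gene this means the same direction and a call again. For a gene not called it means no call and a shift smaller than its SD over mice. No paired analysis was possible because the labels give a single group. With read depth unknown, low detection of Lef1 cannot be told apart from low depth.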

Other observations

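Relatives of the factors were read in these cells too. Tcf7l2, the TCF family member known from Wnt signalling, was detected in 85.9 ± 6.98% of cells (SD of 4 mice), Sox13, which encodes an SRY-box factor of gamma-delta T cells, in 46.3 ± 2.16% and Tox2 in 15.3 ± 10.6%. Of the ETS family, Spi1, which encodes PU.1 of myeloid and early lymphoid progenitors, was detected in 90.4 ± 4.19%, Fli1 in 88.6 ± 4.85%, Erg in 73.3 ± 3.26% and Spib, of plasmacytoid dendritic cells, in 54.1 ± 8.64%. As for Lef1, a share with any reads may include background. A linear level of at least 10 was reached in 49.8% of all cells for Tcf7l2, 30.3% for Sox13 and 6.13% for Tox2. For the ETS genes it was 81.2% (Spi1), 72.8% (Fli1), 43.7% (Erg) and 14.2% (Spib). Erg was a positive partner of Tcf7 (0.203 ± 0.0909) and of Sox4 (0.278), and Etv6 of Sox4 (0.228).

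Vamp8 and the feature ENSMUSG00000103205.1 had the same z difference between Tcf7 and Lef1 in every mouse, with a mean of 0.536 ± 0.216.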
